A study of Mus musculus with 12 samples.

Results

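A set of 35 genes of glycolysis and of the response to low oxygen was followed in RNA from mouse femoral shafts. They are the members of a gene list that was put together with earlier results of these libraries known, and they were found by gene symbol in the deposited tables. All 35 were present and all 35 passed the filter on low counts, among 18161 genes tested. The lowest count of any member in any library was 40 and the highest was 84406. By role they fall into 2 glucose transporters, 14 glycolytic enzymes, 3 genes of lactate and pyruvate handling, 2 regulators of glycolysis, 2 hypoxia-inducible factor (HIF) subunits, 2 HIF hydroxylases and 10 genes known as HIF targets.

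The libraries come from male mice, 12 weeks old, that either lacked catalase, the enzyme that breaks down hydrogen peroxide (Cat -/-, KO), or carried normal Cat genes (Cat +/+, WT). Ethanol was given by gavage in a binge pattern on 4 consecutive days, at 3, 3, 4 and 4.5 g per kg body weight, from a 31.5% (v/v) solution, and the controls received the same volume of PBS. There were 4 groups of 3 libraries: KO mice given ethanol (libraries 4 to 6), KO mice given PBS (1 to 3), WT mice given ethanol (10 to 12) and WT mice given PBS (7 to 9). Values of single libraries are given in that order of number. All mice were killed 6 h after the last gavage, and marrow was spun out of the femurs before the shafts were put in RNAlater. Each library was a pool of RNA from 2 mice, so the spread between libraries is the spread between pools, and the difference between single mice within a pool was not measured.

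Glycolysis turns glucose into pyruvate and yields ATP without oxygen, and lactate dehydrogenase then regenerates NAD+ by making lactate. Osteoblasts rely heavily on this route, and fast skeletal muscle has very high levels of the same enzymes. When oxygen is plentiful, the prolyl hydroxylases encoded by Egln genes mark HIF alpha subunits for destruction by the von Hippel-Lindau protein. When oxygen is short, HIF alpha subunits escape, pair with Arnt, bind a short core motif in DNA and raise transcription of glucose transporters, glycolytic enzymes, Vegfa and the hydroxylases themselves. In bone, this pathway is known for coupling blood vessel growth to bone formation. HIF activity is set mainly by protein stability, which RNA levels do not show.

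The core motif that HIF binds is ACGTG or GCGTG, read on either strand (CACGT or CACGC on the other). It was searched in RefSeq promoter windows of GRCm38.p6, which run from 250 bases before to 50 bases after each annotated start and are 300 bases long. Of the 35 members, 30 had an entry, with 48 windows between them, and 37 of those windows (77.1%) held the motif. Among all 32851 windows of the table, 14380 (43.8%) held it. The letters overlap with the E-box CACGTG, which other factors bind, so a match is a description of the window and not a binding site. The windows of 4 of the 5 members that changed in an ethanol comparison are printed here 5′ to 3′ on the gene's strand, with the motif in capitals, because the ethanol results turn on these genes. The window of Ankrd37 (chr8:45999801-46000100, minus strand) held 4 matches, at −241, −155, −152 and −6 bases from the start, and those at −155 and −152 overlap each other on opposite strands. Adm (chr7:110627407-110627706, plus strand) held 2, at −90 and −54. Pfkl (chr10:78009758-78010057, minus strand) held 1, at −99, and the window of the second of the 3 annotated Mxi1 starts (chr19:53329163-53329462, plus strand) held 1, at −66. The windows of the other Mxi1 starts are not printed: the first held no match and the third held 1, at −25. Motifs were present both in genes called lower after ethanol (Ankrd37, Adm) and in genes called higher (Mxi1, and Pfkl in KO mice only). A motif was also found in at least 1 window of 28 of the 30 matched members, against 46.7% of all genes with windows. Its presence therefore does not set the changed members apart from the others.
Ankrd37: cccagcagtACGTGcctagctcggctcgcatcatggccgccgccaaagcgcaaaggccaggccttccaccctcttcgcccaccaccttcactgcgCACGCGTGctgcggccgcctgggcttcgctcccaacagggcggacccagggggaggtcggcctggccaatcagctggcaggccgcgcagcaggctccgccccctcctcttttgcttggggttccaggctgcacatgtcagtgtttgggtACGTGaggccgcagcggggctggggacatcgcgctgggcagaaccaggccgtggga
Adm: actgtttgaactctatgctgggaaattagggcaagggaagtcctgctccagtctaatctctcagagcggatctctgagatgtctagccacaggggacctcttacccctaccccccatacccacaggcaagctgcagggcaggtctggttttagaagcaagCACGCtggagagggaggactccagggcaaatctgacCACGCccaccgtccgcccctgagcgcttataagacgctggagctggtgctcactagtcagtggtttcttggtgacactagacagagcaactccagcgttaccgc
Pfkl: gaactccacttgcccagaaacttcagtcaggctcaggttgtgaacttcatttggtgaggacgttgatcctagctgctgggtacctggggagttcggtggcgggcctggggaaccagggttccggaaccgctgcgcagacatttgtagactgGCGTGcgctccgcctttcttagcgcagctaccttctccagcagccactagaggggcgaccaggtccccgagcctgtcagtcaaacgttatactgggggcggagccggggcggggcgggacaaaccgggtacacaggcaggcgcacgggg
Mxi1: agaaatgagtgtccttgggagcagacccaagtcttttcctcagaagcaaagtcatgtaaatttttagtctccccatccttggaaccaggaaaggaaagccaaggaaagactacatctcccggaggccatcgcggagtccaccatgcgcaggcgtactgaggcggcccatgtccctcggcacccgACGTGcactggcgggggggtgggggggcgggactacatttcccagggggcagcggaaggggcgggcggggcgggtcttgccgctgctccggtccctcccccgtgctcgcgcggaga

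Levels are given as CPM (counts scaled to equal library totals, with TMM factors), and differences as log2 values from edgeR's quasi-likelihood test over all 12 libraries, with Benjamini-Hochberg adjustment over the 18161 genes. A gene is called where its adjusted p was under 0.05. Library totals ran from 19950222 to 28789308 counts. Cat itself checked the genotype labels: it had 69.0, 74.2 and 71.6 CPM in the KO ethanol libraries and 172, 165 and 144 CPM in the WT ethanol libraries, a log2 difference of −1.16 (SE 0.102, adjusted p = 0.00102). Under PBS, Cat had 70.1, 65.9 and 66.5 CPM in KO and 128, 152 and 175 CPM in WT libraries, a log2 difference of −1.17 (SE 0.102, adjusted p = 0.00202). The KO libraries thus kept part of the Cat reads, and counts per gene do not show from which exons. Markers of the labelled tissue were present: summed CPM of 8 osteoblast markers was 10933 to 41968 and that of 5 osteocyte markers 1746 to 4552. Marrow cells were also represented, with summed CPM of 11126 to 21705 for 12 erythroid and 23689 to 42093 for 11 neutrophil markers.

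The libraries differed widely in skeletal muscle RNA. A list of 21 muscle markers, none of them a member, took 0.819%, 0.954% and 0.750% of the counts in the KO ethanol libraries and 0.370%, 1.39% and 0.967% in the KO PBS libraries. It took 0.158%, 2.18% and 4.18% in the WT ethanol libraries and 0.378%, 3.43% and 3.89% in the WT PBS libraries. Libraries 8 and 9 (WT PBS) and 12 (WT ethanol) therefore stood apart from the other 9, and in 14 of the 35 members these 3 libraries were all above every other library, as they were in 9.85% of all genes (1789). Results are given with and without them where they matter. The fit without them leaves library 7 as the sole WT PBS library and libraries 10 and 11 as the WT ethanol group. Its SE and p assume that the lone library varies like the other groups, and values from it that involve WT PBS mice rest on library 7. The first principal component over all genes carried 42.0% of the variance, with library 10, which had the smallest muscle share, at one end and library 12, which had the largest, at the other. The marrow score (mean log2 CPM of the erythroid, neutrophil and B cell markers) was highest in library 10 (8.90) and lowest in library 12 (8.33). The part of marrow RNA in this component was not tested. In bulk RNA, fewer cells of a type and less RNA per cell cannot be told apart.

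**Figure D1:**
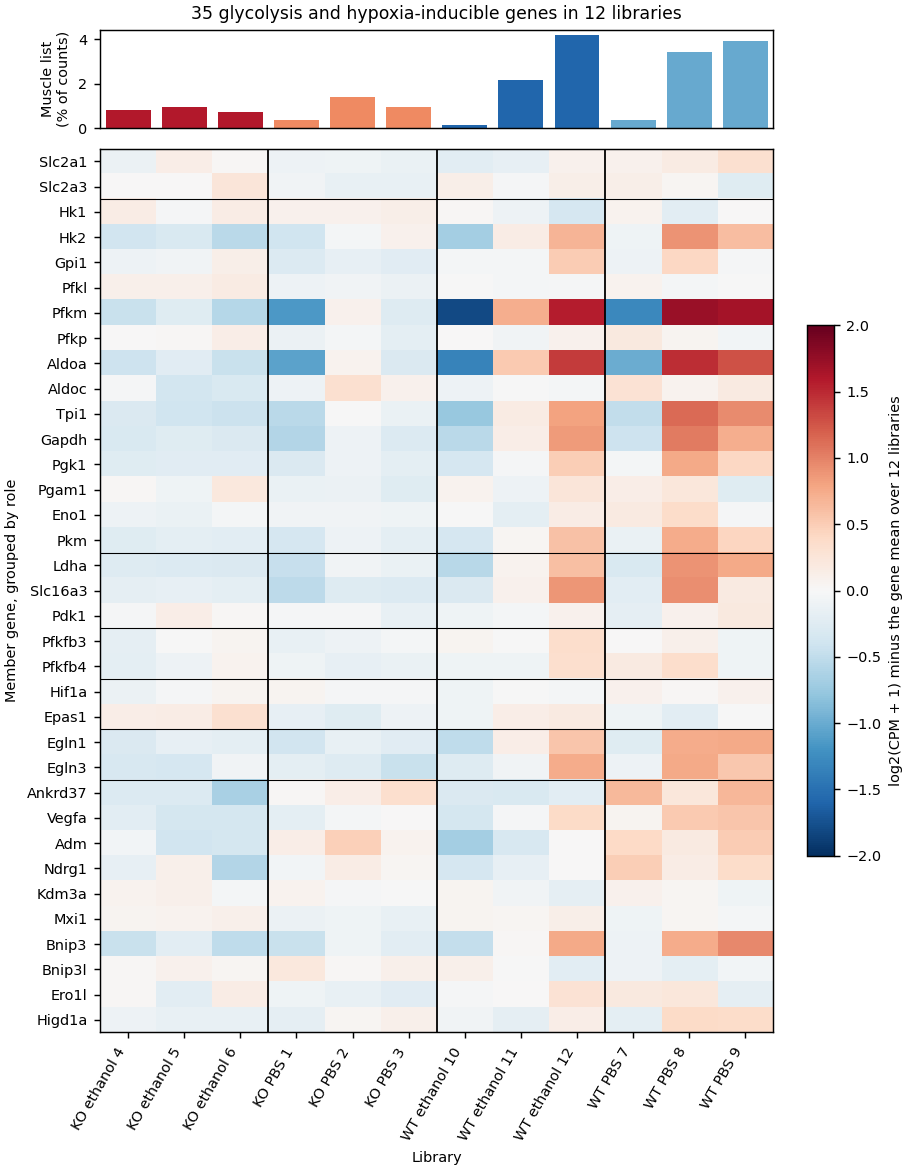
The heat map shows log2(CPM + 1) of each of the 35 members (rows, grouped by role) minus the gene's mean over the 12 libraries (columns), under bars of the percent of counts taken by the 21 muscle markers. Pfkm, Aldoa, Tpi1, Gapdh and Ldha are high in libraries 8, 9 and 12, where the muscle bars reach 3.43% to 4.18%, whereas Ankrd37 and Adm are higher in PBS than in ethanol columns of both genotypes.

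Slc2a3 and Slc2a1 encode the glucose transporters GLUT3 and GLUT1. Per kilobase of exon, Slc2a3 was the more abundant, at a mean of 34.3 CPM per kb against 5.54 CPM per kb for Slc2a1. Slc2a3 had 249, 248 and 293 CPM in the KO ethanol libraries and 235, 224 and 222 CPM in the KO PBS libraries. The WT ethanol libraries had 268, 243 and 269 CPM of Slc2a3 and the WT PBS libraries 269, 253 and 210.0 CPM. All 3 KO ethanol libraries were above all 3 KO PBS libraries, whereas the WT groups overlapped. The log2 difference was 0.21 in KO (SE 0.095, adjusted p = 0.285) and 0.091 in WT mice (SE 0.095, adjusted p = 0.695), neither of them called. Slc2a1 had 17.7, 21.3 and 19.8 CPM in the KO ethanol libraries and 18.0, 18.1 and 17.5 CPM in the KO PBS libraries. In WT mice, Slc2a1 had 16.6, 17.1 and 20.5 CPM with ethanol and 20.5, 21.7 and 24.3 CPM with PBS. Here the 3 KO PBS libraries lay below the 3 WT PBS libraries, and neither ethanol comparison separated its groups.

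The 14 glycolytic enzymes covered a wide range of levels. Aldoa, which encodes the aldolase of muscle and most other tissues, was the most abundant member at 643 CPM per kb. Gapdh followed at 246 and Pkm at 237 CPM per kb, and Aldoc, the aldolase best known from brain, was the lowest of all 35 at 0.763 CPM per kb. Aldoa had 1137, 1289 and 1112 CPM in the KO ethanol libraries and 717, 1584 and 1239 CPM in the KO PBS libraries. In WT mice, Aldoa had 598, 2181 and 3999.9 CPM with ethanol and 762, 4197 and 3653 CPM with PBS. Within the WT ethanol group the highest library had 6.69 times the Aldoa CPM of the lowest, and both WT groups overlapped each other and the KO groups. Pfkm, the muscle form of phosphofructokinase, spread in the same libraries. Pfkm had 187, 215 and 172 CPM in the KO ethanol libraries and 116, 273 and 213 CPM in the KO PBS libraries. The WT ethanol libraries had 72.6, 426 and 762 CPM of Pfkm and the WT PBS libraries 104, 848 and 810.3 CPM. Libraries 7 and 10, the WT libraries with little muscle RNA, had the lowest Pfkm of all 12.

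The liver form of phosphofructokinase, Pfkl, behaved otherwise: it varied little within groups and rose with ethanol in KO mice. Pfkl had 62.4, 61.9 and 64.6 CPM in the KO ethanol libraries and 54.0, 54.8 and 53.0 CPM in the KO PBS libraries. In WT mice, Pfkl had 57.3, 56.0 and 57.2 CPM with ethanol and 60.8, 56.1 and 57.3 CPM with PBS. Every KO ethanol library was above every KO PBS library, and above every WT library as well, whereas the WT groups overlapped. The log2 difference in KO mice was 0.22 (SE 0.049, adjusted p = 0.0430), a fold of 1.17. In WT mice it was −0.031 (SE 0.049, adjusted p = 0.811). The difference between these effects, 0.25 (SE 0.069), had the smallest p of any member in that test (unadjusted p = 0.00336 by edgeR) and was not called after adjustment. Pfkl (chr10:77986947-78010083, minus strand) has no near-identical copy and no overlapping exon in GENCODE M21. The call in KO mice was lost in 10 of 23 alternative settings (upper-quartile factors, all genes kept, and library 1, 2, 3, 4, 5, 6, 10 or 11 left out), with adjusted p up to 0.182, and the value stayed between 0.21 and 0.24. The platelet form, Pfkp, had a log2 difference of 0.17 in KO (SE 0.075, adjusted p = 0.275) and was not called. Pfkp overlaps exons of Pitrm1 on the other strand, whose counts came to 120.4% of its own.

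No other glycolytic enzyme was called in any comparison of treatment or genotype. Of the 14, 12 had a negative log2 difference with ethanol in WT mice (median −0.28) and 9 in KO mice (median −0.0065). Of all 18161 genes, 9748 were below 0 in WT and 9076 in KO mice. The 12 include all 7 enzymes whose levels rose with muscle RNA, described below. Aldoc, with 40 to 95 counts per library, came nearest to a call in the averaged ethanol comparison, at −0.40 (SE 0.136, adjusted p = 0.0857). Hk1, the hexokinase of most tissues, had 238 ± 16.4 CPM in KO ethanol libraries, 239 ± 3.36 in KO PBS, 204 ± 25.1 in WT ethanol and 218 ± 21.4 in WT PBS (SD, n = 3 each). Gpi1, Pgam1 and Eno1, which catalyse steps on either side of the aldolase reaction, had log2 differences with ethanol between −0.18 and 0.22 in either genotype, all uncalled.

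Ldha, Slc16a3 and Pdk1 handle the end of the pathway: Ldha makes lactate, Slc16a3 (MCT4) exports it, and Pdk1 keeps pyruvate out of mitochondria by inhibiting pyruvate dehydrogenase. Ldha was the most abundant of the 3, at 180.3 CPM per kb. Ldha had 472, 469 and 462 CPM in the KO ethanol libraries and 409, 539 and 517 CPM in the KO PBS libraries. The WT ethanol libraries had 384, 595 and 857 CPM of Ldha and the WT PBS libraries 459, 1048 and 952 CPM. As with Aldoa, the WT libraries with most muscle RNA were highest and the treatment groups overlapped. Slc16a3 ranged from 67.2 to 186 CPM over the 12 libraries and Pdk1 only from 44.7 to 58.3 CPM. Pfkfb3 and Pfkfb4 make fructose 2,6-bisphosphate, the activator of phosphofructokinase. Pfkfb4 had 74.9, 80.6 and 91.0 CPM in the KO ethanol libraries and 81.2, 76.7 and 78.9 CPM in the KO PBS libraries. In WT mice, Pfkfb4 had 81.4, 81.2 and 109 CPM with ethanol and 98.0, 111 and 81.0 CPM with PBS. The groups overlapped, and Pfkfb3 and Pfkfb4 were called in no comparison.

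The spread within WT groups was set against muscle RNA directly. With the 4 group means in the model, the slope of each gene on the muscle score (the mean log2 CPM of the 21 markers in a library) was positive and called for 13 of the 35 members and negative and called for none. Over all genes 11.5% were called (1719 with a positive and 375 with a negative slope). The median slope was 0.052 for the members and −0.011 for all genes tested. Of the 13, 9 are glycolytic: Pfkm, Aldoa, Tpi1, Gapdh, Hk2, Pkm, Pgk1, Ldha and Slc16a3. The other 4 belong to the HIF side: Bnip3, Egln1, Egln3 and Vegfa.

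Pfkm had the steepest slope, 0.81 per unit of muscle score (SE 0.043, edgeR adjusted p = 3.11e-07). Aldoa followed at 0.64 per unit of muscle score (SE 0.038, edgeR adjusted p = 3.09e-07), and Tpi1, triosephosphate isomerase, at 0.38 per unit of muscle score (SE 0.032, edgeR adjusted p = 5.65e-06). Gapdh, often used as a constant reference in quantitative PCR, had a slope of 0.32 per unit of muscle score (SE 0.035, edgeR adjusted p = 4.61e-05). Its CPM in the WT PBS group was 707, 1939.5 and 1557, with the highest library at 2.74 times the lowest. Ldha had a slope of 0.28 per unit of muscle score (SE 0.026, edgeR adjusted p = 1.22e-05) and Hk2, the hexokinase of muscle and fat, of 0.28 per unit of muscle score (SE 0.031, edgeR adjusted p = 9.40e-05). Tpi1 had 238, 221 and 215 CPM in KO ethanol and 201, 289.9 and 267 CPM in KO PBS libraries. In the WT ethanol libraries Tpi1 had 172, 325 and 508 CPM and in the WT PBS libraries 208, 641 and 559 CPM. Tpi1 thus spread more in both WT groups than in either KO group. Hk2 had 73.0, 77.3 and 65.5 CPM in KO ethanol and 72.0, 93.0 and 102 CPM in KO PBS libraries. The KO values of Hk2 lay inside the wider range of WT mice, whose values were 59.1, 105 and 154 CPM with ethanol and 90.0, 179.7 and 147 CPM with PBS. Both genes were highest in libraries 8, 9 and 12.

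Genes with no call for muscle content included the near relatives of some of these. Pfkl had a slope of −0.012 (SE 0.013, adjusted p = 0.632), Pfkp of −0.016, Hk1 of −0.057 and Aldoc of 0.016. Pgam1, the phosphoglycerate mutase of most tissues, had a slope of −0.0080 (SE 0.035, adjusted p = 0.923) and Eno1, the widely expressed enolase, of 0.0076 (SE 0.027, adjusted p = 0.904). Their muscle counterparts, listed outside the members, had slopes of 0.95 for Pgam2 (SE 0.059, adjusted p = 2.95e-06) and 0.98 for Eno3 (SE 0.060, adjusted p = 2.08e-06). All 7 listed muscle forms of glycolysis and glycogen genes were called, with a median slope of 0.98, the others being Pygm (muscle glycogen phosphorylase), Fbp2, Phka1, Phkg1 and Slc2a4 (GLUT4). The lists were chosen by known tissue and this order is therefore no test of that choice.

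**Figure D2:**
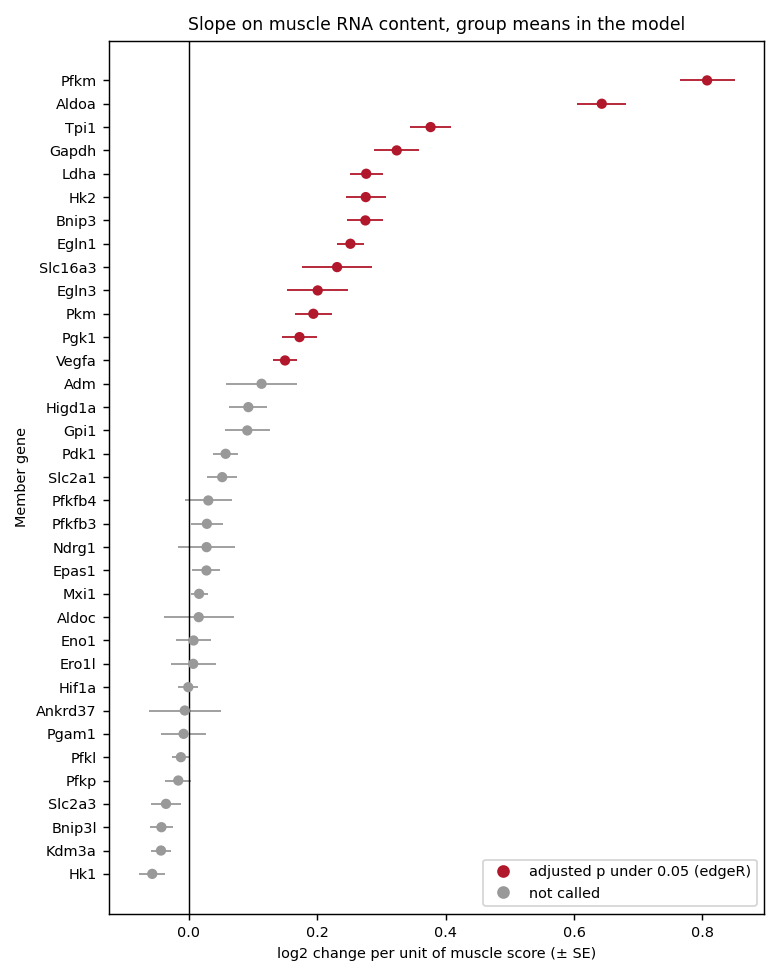
Points show each member's log2 change per unit of muscle score, with bars of ± SE, from the edgeR model that also holds the 4 group means, and red points mark an adjusted p under 0.05. The 13 called members all lie right of 0, from Vegfa at 0.15 to Pfkm at 0.81.

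**Figure D3:**
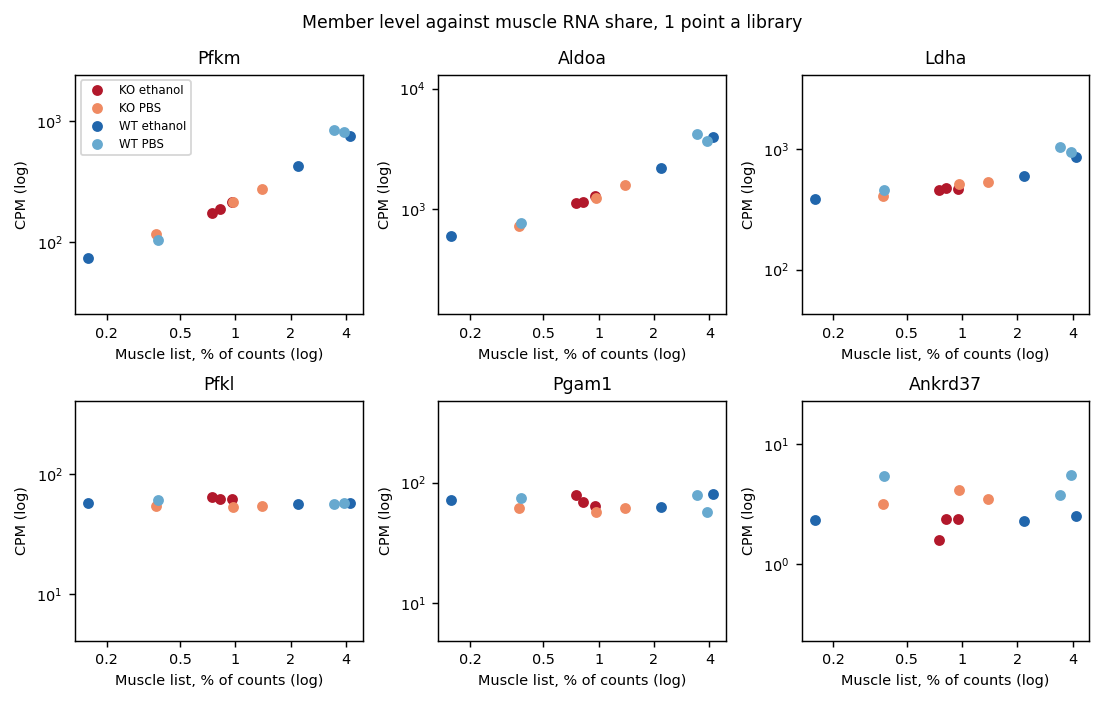
Each point is a library, with the percent of counts taken by the 21 muscle markers on a log axis and the member's CPM on a log axis that spans the same ratio in every panel. Pfkm, Aldoa and Ldha climb from library 10 (0.158%) to libraries 8, 9 and 12 (3.43% to 4.18%), and Pfkl and Pgam1 stay nearly level.

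Each of the 13 slopes stayed positive in all 18 alternative fits, which share libraries with the fit that picked them. Without libraries 8, 9 and 12, where library 7 alone stands for WT PBS, the Egln3 slope fell to 0.040 (SE 0.056). The call of Slc16a3 was lost when all genes were kept or when library 7, 10 or 12 was left out. That of Egln3 was lost without any 1 of libraries 7, 10 and 12. Pfkm overlaps exons of Senp1 and Gm26513, whose counts came to 22.2% of its own, and Gapdh has 127 near-identical copies in the transcript set, whose counts came to 1.77% of its own. On the other strand, Pfkp overlaps exons of Pitrm1, whose counts came to 120.4% of its own. Tpi1 likewise overlaps Spsb2 (5.73%) and Gapdh overlaps Iffo1 (5.71%). Pkm overlaps Gm49759 on the same strand (4.75%). With the strand setting not given in the sources used here, reads of these members and of their neighbours cannot be told apart with certainty. Adipocyte markers also moved with muscle content, with 4 of 7 called and a median slope of 0.52. Over all genes 11.5% were called (1719 positive). All 3 tendon markers had positive slopes, 1 of them called. Slopes were negative for all 12 erythroid and all 8 B cell markers and positive for 10 of 11 neutrophil markers, none of them called. The part of these cell types in the members' slopes was not tested.

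Of the HIF alpha subunits, Epas1 was called and Hif1a was not. Epas1 encodes HIF-2α and is abundant in endothelial cells, and it was higher after ethanol. Per kilobase Epas1 had 34.0 and Hif1a 14.5 CPM per kb. Epas1 lies at chr17:86753700-86833410 (plus strand) and overlaps no other exon. Epas1 had 206, 209 and 235 CPM in the KO ethanol libraries and 169, 160.0 and 175 CPM in the KO PBS libraries. In WT mice, Epas1 had 178, 207 and 213 CPM with ethanol and 177, 162 and 187 CPM with PBS. All 3 KO ethanol libraries exceeded all 3 KO PBS libraries, while WT library 10 (ethanol) lay among the PBS values. Averaged over genotypes the log2 difference was 0.27 (SE 0.060, adjusted p = 0.0149), a fold of 1.21. It was 0.37 in KO (SE 0.085, adjusted p = 0.0522) and 0.18 in WT mice (SE 0.085, adjusted p = 0.319). The averaged call was kept in all 22 alternative settings, including the fit without libraries 8, 9 and 12, at 0.25 (SE 0.066, adjusted p = 0.0390). Summed CPM of 10 endothelial markers was 556 to 578 in KO ethanol, 516 to 575 in KO PBS, 523 to 570 in WT ethanol and 516 to 588 in WT PBS libraries. Averaged over genotypes, 1 of the 10, Eng, was called higher (0.36), against 10.8% of all genes called. Of these markers 4 were above 0 and 6 below, with a median of −0.044. Hif1a had 83.8 ± 4.92 CPM in KO ethanol, 86.0 ± 2.59 in KO PBS, 82.8 ± 2.22 in WT ethanol and 89.8 ± 2.18 in WT PBS libraries (SD, n = 3 each), an averaged log2 difference of −0.077 (SE 0.039, adjusted p = 0.246).

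Egln1 and Egln3 encode the prolyl hydroxylases PHD2 and PHD3. Egln1 had 51.2, 56.3 and 54.8 CPM in the KO ethanol libraries and 48.1, 56.6 and 53.6 CPM in the KO PBS libraries. In WT mice, Egln1 had 44.0, 69.6 and 93.4 CPM with ethanol and 53.2, 106 and 107 CPM with PBS. These values followed muscle RNA, with a slope of 0.25 per unit of muscle score (SE 0.021, edgeR adjusted p = 3.57e-06), and the ethanol and PBS groups overlapped in both genotypes. Egln3 ranged from 9.96 to 24.3 CPM, with a slope of 0.20 per unit of muscle score (SE 0.047, edgeR adjusted p = 0.0168). Ethanol differences were uncalled for both, at −0.16 for Egln1 (SE 0.212, adjusted p = 0.689) and −0.091 for Egln3 averaged over genotypes (SE 0.202, adjusted p = 0.827).

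Among the 10 HIF targets, Ankrd37 and Adm fell and Mxi1 rose with ethanol when averaged over genotypes. With Epas1 these made 4 of the 35 members called in that comparison, 2 lower and 2 higher, against 10.8% of all genes (1055 lower and 912 higher). The members' share was thus near the background. Their median log2 difference was −0.091 and that of all genes −0.0088, with 12 of 35 members above 0. Without libraries 8, 9 and 12 the median was 0.0013, with 18 above 0, and the same 4 members were called.

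Ankrd37 encodes an ankyrin repeat protein and is a known HIF-1 target. Ankrd37 had 2.38, 2.39 and 1.61 CPM in the KO ethanol libraries and 3.18, 3.47 and 4.17 CPM in the KO PBS libraries. The WT ethanol libraries had 2.35, 2.30 and 2.53 CPM of Ankrd37 and the WT PBS libraries 5.43, 3.78 and 5.46 CPM. In both genotypes every ethanol library lay below every PBS library. Averaged over genotypes the log2 difference was −0.90 (SE 0.142, adjusted p = 0.00353), or 0.537 times the PBS level. It was −1.03 in WT (SE 0.202, adjusted p = 0.0381) and −0.76 in KO mice (SE 0.20, adjusted p = 0.0753). Ankrd37 was the 1 member called in WT mice, where 1.26% of all genes were called (101 higher and 128 lower). The averaged call held in all 21 alternative settings that kept the gene, with values from −0.98 to −0.81. The WT call was lost in 13 of 22 (limma-voom, the compared groups alone, libraries 8, 9 and 12 left out together, or library 1, 2, 3, 4, 5, 7, 9, 10, 11 or 12 left out alone), with adjusted p from 0.0547 to 0.240 in those settings. Against library 7 as the sole WT PBS library the WT value was −1.21 (SE 0.27, adjusted p = 0.102). The counts behind these values were 44 to 135 per library. Ankrd37 (chr8:45996902-46005707, minus strand) overlaps exons of Ufsp2 and Lrp2bp on the other strand, whose counts came to 1169% of its own. With no strand setting stated, reads of Ankrd37 and of these 2 genes cannot be told apart with certainty. Ufsp2 had an averaged ethanol difference of −0.11 (SE 0.047, adjusted p = 0.162) and Lrp2bp of −0.40 (SE 0.440, adjusted p = 0.631).

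Adm encodes adrenomedullin, a peptide that widens vessels and acts on bone cells. Adm had 3.86, 2.90 and 2.99 CPM in the KO ethanol libraries and 4.56, 6.08 and 4.30 CPM in the KO PBS libraries. In WT mice, Adm had 2.17, 3.05 and 4.11 CPM with ethanol and 5.72, 4.77 and 6.20 CPM with PBS. Ethanol libraries were below PBS libraries in both genotypes, with no overlap. The averaged log2 difference was −0.73 (SE 0.162, adjusted p = 0.0161), or 0.604 times the PBS level. In KO mice it was −0.61 (SE 0.227, adjusted p = 0.195) and in WT mice −0.84 (SE 0.231, adjusted p = 0.103). Adm (chr7:110627661-110629820, plus strand) overlaps no other exon and has no near-identical copy, and its averaged call held in all 22 alternative settings, from −0.86 to −0.63.

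Mxi1 (chr19:53310518-53375810, plus strand) encodes a repressor that competes with Myc for the partner Max, and it overlaps exons of Gm10197, whose counts came to 0.0187% of its own. Mxi1 had 116, 117 and 119.7 CPM in the KO ethanol libraries and 102, 105 and 101 CPM in the KO PBS libraries. The WT ethanol libraries had 115, 114 and 121 CPM of Mxi1 and the WT PBS libraries 105, 115 and 108 CPM. KO ethanol libraries were all above KO PBS libraries, whereas in WT mice library 11 (ethanol) lay below library 8 (PBS). The averaged log2 difference was 0.15 (SE 0.037, adjusted p = 0.0290), a fold of 1.11. This call was lost in 8 alternative settings: when all genes were kept, and when library 1, 2, 3, 4, 5, 6 or 9 was left out, with adjusted p up to 0.0813. In KO mice the value was 0.20 (SE 0.053, adjusted p = 0.0819) and in WT mice 0.10 (SE 0.053, adjusted p = 0.401).

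**Figure D4:**
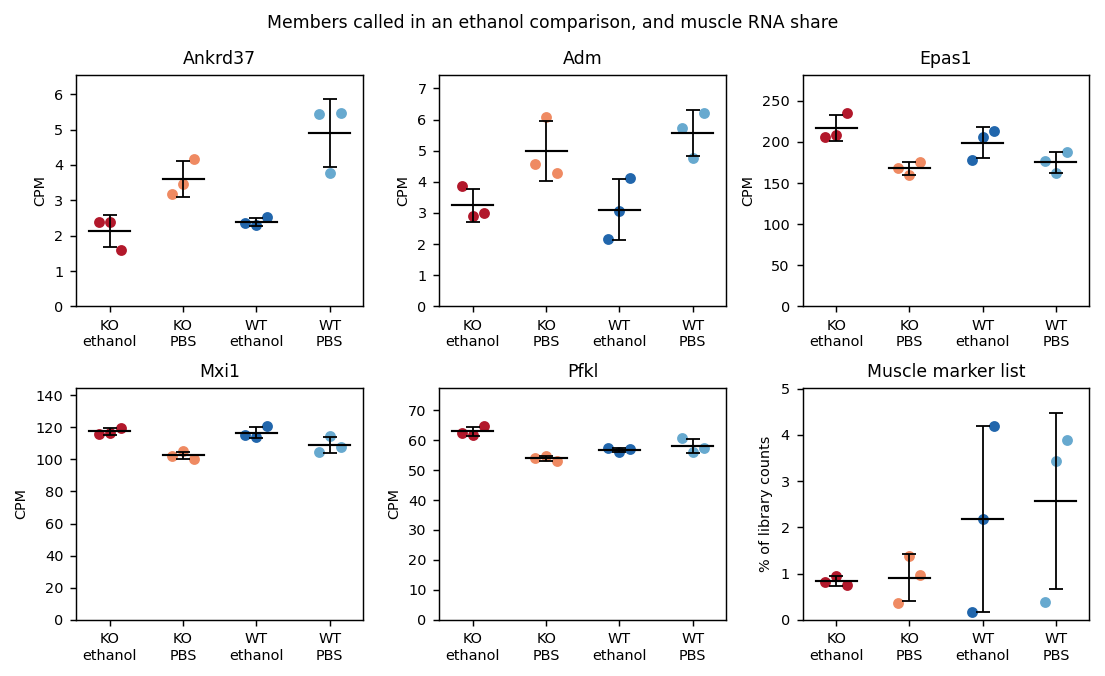
Points are the CPM of each library for the 5 members called in an ethanol comparison, with lines and bars for the mean ± SD of 3 libraries, and the last panel gives the percent of counts taken by the 21 muscle markers. Ankrd37 and Adm lie lower in both ethanol groups than in their PBS groups, Pfkl is highest in the KO ethanol group, and the muscle share spreads most in the WT groups.

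Osteoblast markers also moved with ethanol. Summed CPM of the 8 markers was 10933 to 25016 in KO ethanol, 34831 to 41968 in KO PBS, 11691 to 23936 in WT ethanol and 23725 to 30670 in WT PBS libraries, so the KO ranges were apart and the WT ranges met. Averaged over genotypes, 5 of the 8 were called lower: Bglap2 (−1.13), Alpl (−0.84), Col1a1 (−0.81), Sp7 (−0.76) and Runx2 (−0.24). The same comparison, which also gives the marker values below, called 10.8% of all genes (912 higher and 1055 lower). No osteoblast marker was at 0 in every library. Of 5 osteocyte markers all were below 0 (median −0.37) and Phex (−0.70) was called lower. Of 6 chondrocyte markers tested, 5 were below 0 (median −0.83) and Sox9 (−0.73) was called lower. All 8 osteoclast markers were above 0 (median 0.36), and Calcr (1.97) and Ocstamp (0.74) were called higher. Of 11 neutrophil markers 8 were above 0 (median 0.13), and Mmp8 (0.42) and Cxcr2 (0.35) were called higher. Summed CPM of the chondrocyte markers was 80.4 to 214 in KO ethanol, 261 to 336 in KO PBS, 99.2 to 251 in WT ethanol and 227 to 308 in WT PBS libraries. The part of these cell types in the changes of Ankrd37, Adm, Epas1 and Mxi1 was not tested.

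The other 7 targets were uncalled in each comparison of treatment and genotype. Ndrg1, a gene of stress and differentiation, was nearest in the averaged ethanol comparison, with 217 ± 50.8 CPM in KO ethanol, 254 ± 17.6 in KO PBS, 221 ± 26.9 in WT ethanol and 314 ± 37.2 in WT PBS libraries (SD, n = 3 each). Its log2 difference was −0.37 (SE 0.112, adjusted p = 0.0587), and DESeq2 called it lower. Vegfa, the main growth factor of blood vessels, had 70.2 ± 4.02 CPM in KO ethanol, 82.4 ± 5.83 in KO PBS, 89.0 ± 23.3 in WT ethanol and 115 ± 21.5 in WT PBS libraries (SD, n = 3 each). Its averaged difference was −0.30 (SE 0.127, adjusted p = 0.161). With the muscle score in the model it became −0.25 (SE 0.046, adjusted p = 0.00433) and was called, whereas without libraries 8, 9 and 12 it was −0.23 (SE 0.084, adjusted p = 0.138). Hk2 likewise passed with the muscle score, at −0.28 (SE 0.078, adjusted p = 0.0358), and not without libraries 8, 9 and 12, at −0.21 (SE 0.23, adjusted p = 0.633).

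Bnip3 and Bnip3l encode related mitophagy receptors. Bnip3l was the most abundant target, at 71.6 CPM per kb. Bnip3l had 279.5, 291 and 283 CPM in the KO ethanol libraries and 319, 281 and 296 CPM in the KO PBS libraries. In WT mice, Bnip3l had 295, 274 and 238 CPM with ethanol and 256, 239.8 and 264 CPM with PBS. KO PBS libraries were all above WT PBS libraries, and the ethanol groups overlapped their PBS groups. Bnip3 followed muscle RNA, with a slope of 0.28 per unit of muscle score (SE 0.028, edgeR adjusted p = 2.37e-05), and Bnip3l did not, at −0.042 (SE 0.018, adjusted p = 0.170). Kdm3a, a histone demethylase, Ero1l, an oxidase of the endoplasmic reticulum, and Higd1a, a mitochondrial protein, had averaged ethanol differences of −0.026, 0.072 and −0.19, all uncalled.

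In KO mice, Pfkl was the 1 member called with ethanol, against 1.87% of all genes (175 higher and 164 lower). The members' median log2 difference was −0.0012, with 17 of 35 above 0, and that of all genes 0.00014. In WT mice the median was −0.25, with 7 of 35 above 0, against −0.018 for all genes. The 13 members called for muscle content had a WT median of −0.37 and the other 22 of −0.072. When libraries 8, 9 and 12 were left out, so that library 7 alone stood for WT PBS, the 13 had a WT median of 0.11 and the 22 of −0.11. The muscle list itself had a median of −0.39 in WT and −0.15 in KO mice. The WT median of those 13 members thus had the opposite sign against library 7 alone. That is a value from 1 PBS library and not a replicated comparison. Leaving libraries 8, 9 and 12 out did not balance muscle RNA. The muscle list took 0.378% of counts in library 7 and 0.158% and 2.18% in ethanol libraries 10 and 11. The 13 were also picked by their muscle slope in these libraries, so the change of sign is no test of the part of muscle.

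**Figure D5:**
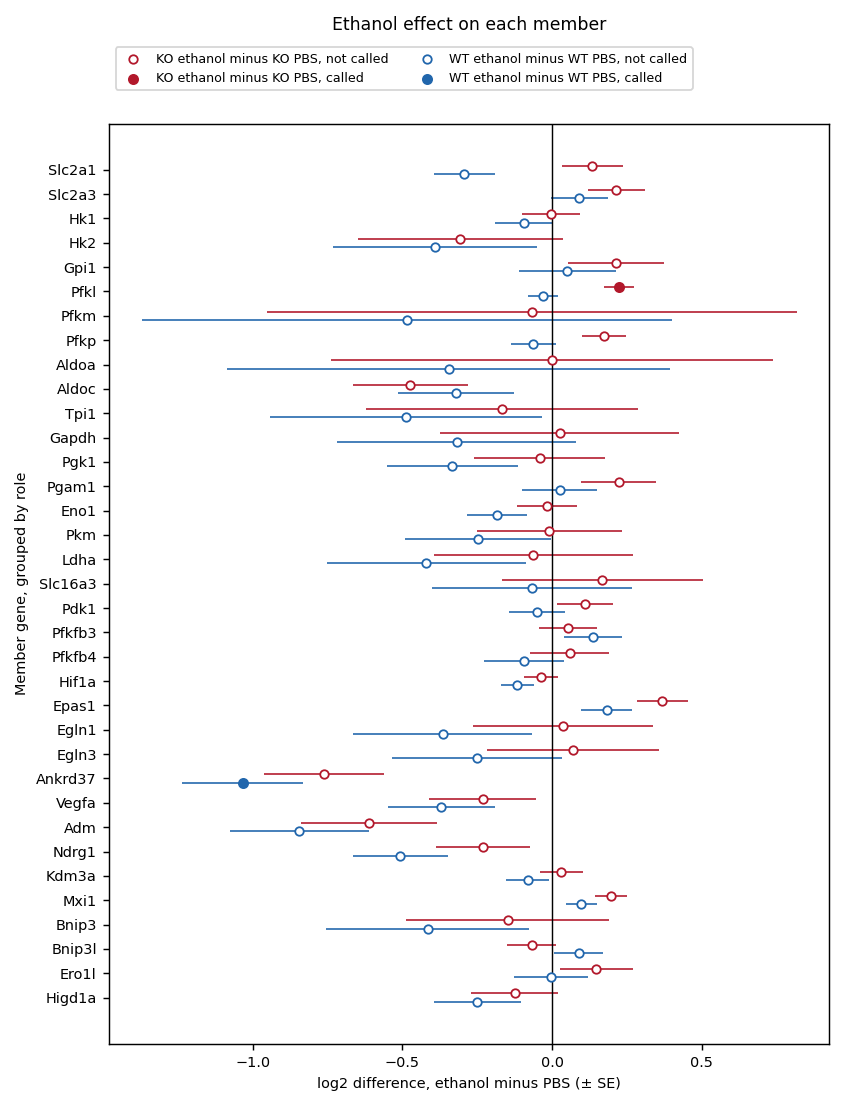
For each member, grouped by role, the upper marker gives the log2 difference between KO ethanol and KO PBS libraries and the lower marker that between WT ethanol and WT PBS libraries, with bars of ± SE. Filled markers are called at an adjusted p under 0.05, which holds for Pfkl in KO (0.22) and Ankrd37 in WT mice (−1.03). Bars are widest for Pfkm and Aldoa.

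Loss of catalase called no member. Under PBS 2 genes in all (0.0110%) were called between KO and WT mice, and under ethanol 2 genes (0.0110%), none of them a member. At an unadjusted p under 0.05, 12 members and 1350 genes passed under PBS, and 2 members and 1050 genes under ethanol. DESeq2 called 2 genes under PBS and 14 under ethanol, again with no member. Under PBS, 33 of the 35 members had a lower estimate in KO mice, with a median of −0.29 against −0.0073 for all genes. All 21 muscle markers were also lower there, with a median of −1.64, as were all 11 neutrophil markers (median −0.30). All 12 erythroid (median 0.44), 8 B cell (0.30) and 8 osteoblast markers (0.44) were higher. None of these markers was called. Against library 7 as the sole WT PBS library (8, 9 and 12 left out), the members' median was −0.11 with 9 above 0, and with the muscle score in the model it was −0.21 with 3 above 0. With the marrow score in the model instead, the members' median was −0.16. The part of muscle RNA or of other cell types in the direction of the members was not tested beyond these fits.

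Slc2a1 and Bnip3l had the smallest p among members under PBS. Slc2a1 differed by −0.31 (SE 0.101, edgeR adjusted p = 0.605), or 0.806 times the WT level. Bnip3l differed by 0.24 (SE 0.081, edgeR adjusted p = 0.605). Under ethanol, Pfkl and Hk1 came nearest, at 0.15 (SE 0.049, edgeR adjusted p = 0.820) and 0.22 (SE 0.096, edgeR adjusted p = 0.820). Hk1 had 247, 219 and 248 CPM in KO ethanol and 237, 237 and 243 CPM in KO PBS libraries. In WT mice Hk1 had 227, 209 and 177 CPM with ethanol and 235, 194 and 225 CPM with PBS. The KO and WT ethanol libraries overlapped for Hk1 and did not for Pfkl.

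Whether ethanol acted differently in KO and WT mice was tested as an interaction. It called no gene at all (0%), with 359 genes and 3 members at an unadjusted p under 0.05, and DESeq2 called 1 gene, not a member. Of the members, 32 had a positive estimate, with a median of 0.20 against 0.021 for all genes. With library 7 as the sole WT PBS library (8, 9 and 12 left out), 21 were positive and the median was 0.069, values that rest on that library. Next to Pfkl stood Slc2a1, at 0.43 (SE 0.143, unadjusted p = 0.0118 by edgeR), with ethanol estimates of 0.13 in KO and −0.29 in WT mice. The ethanol comparisons share no library, but each shares its libraries with the genotype comparisons.

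Further genes of these pathways came from lists that had likewise been drawn up with earlier results known. Of 42 other HIF pathway genes and targets, ethanol averaged over genotypes called 3 higher and 7 lower, with a median of −0.016, against 10.8% of all genes called (912 higher and 1055 lower). Hif3a, which encodes an alpha subunit whose short forms restrain HIF, was higher, with a log2 difference of 1.02 (SE 0.182, adjusted p = 0.00592). It had 3.35, 6.05 and 6.10 CPM in KO ethanol and 2.31, 2.40 and 2.27 CPM in KO PBS libraries. In WT mice Hif3a had 1.94, 3.01 and 3.37 CPM with ethanol and 1.65, 1.29 and 1.48 CPM with PBS, so ethanol libraries were above PBS libraries in both genotypes. Angptl4, an inhibitor of lipoprotein lipase, rose by 1.08 (SE 0.219, adjusted p = 0.0145), and Plod1, a collagen lysyl hydroxylase, by 0.21 (SE 0.047, adjusted p = 0.0171).

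Of the 7 that fell, 3 encode enzymes that modify collagen. P4ha1 and P4ha2 encode subunits of the collagen prolyl hydroxylase. The log2 difference was −0.63 for P4ha1 (SE 0.097, adjusted p = 0.00352) and −0.65 for P4ha2 (SE 0.134, adjusted p = 0.0126). Lox, which cross-links collagen, differed by −0.80 (SE 0.159, adjusted p = 0.0128). P4ha1 averaged 54.2 ± 11.3 CPM in KO ethanol, 84.1 ± 4.97 in KO PBS, 57.3 ± 4.35 in WT ethanol and 88.7 ± 10.4 in WT PBS libraries (SD, n = 3 each). The part of the osteoblast markers, 5 of 8 of them called lower, was not tested here either. Ak4, a mitochondrial adenylate kinase, had the smallest p of the list, at −0.72 (SE 0.090, adjusted p = 0.00112), with 4.93, 4.79 and 4.97 CPM in KO ethanol and 7.27, 6.63 and 6.53 CPM in KO PBS libraries. Its WT values were 4.33, 5.35 and 5.79 CPM with ethanol and 10.9, 8.95 and 10.3 CPM with PBS, so the groups did not overlap in either genotype. Arnt2, Hmox1 (heme oxygenase) and Tmem45a differed by −0.89, −0.65 and −0.60. Within genotypes, Hif3a (1.15) and P4ha1 (−0.63) were called in KO and Ak4 (−0.96) in WT mice. Without libraries 8, 9 and 12 the averaged calls of Arnt2, P4ha2, Lox, Angptl4 and Tmem45a were lost, and those of Hif3a, P4ha1, Ak4, Plod1 and Hmox1 were kept. The call of Hmox1 was lost with all genes kept and without any 1 of libraries 1 to 6, and those of Arnt2 and Plod1 without library 2. The KO calls of Hif3a and P4ha1 were lost in 10 and 12 alternative settings, and the WT call of Ak4 with the compared groups alone.

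Of 28 other genes of glycolysis and pyruvate use, 27 were tested. Ethanol averaged over genotypes called 1 of them, Galm (galactose mutarotase), higher by 0.37 (SE 0.080, adjusted p = 0.0141). That comparison called 10.8% of all genes (912 higher and 1055 lower). Of the 27, 14 had a called positive muscle slope, against 11.5% of all genes called in either direction (1719 positive), among them Pdk4 (0.75) and Pgm2 (0.64). Of 8 pentose phosphate genes, Rpia alone was called, at −0.18 averaged over genotypes (SE 0.042, adjusted p = 0.0207), and that call was lost without libraries 8, 9 and 12 and without library 1, 3 or 5. No gene of these lists was called between KO and WT mice or in the interaction. Among them Ak4 came nearest under PBS (−0.56, edgeR adjusted p = 0.605) and Hif3a under ethanol (0.90, edgeR adjusted p = 0.820).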

How the data were processed

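RNA from 12 pools of femoral shafts (2 mice each) was sequenced. Per the submitters' processing notes, reads were handled with Trimmomatic 0.36, STAR 2.5.2b and featureCounts of Subread 1.5.2 on GRCm38. The sources used here name neither the strand setting nor the annotation release. Deposited raw values are whole-number counts for 49315 Ensembl genes, and the deposited normalized table holds, per the file headers, normalized counts of 17408 genes, a signal that equals the raw counts divided by 1 factor per library. Its gene names located the members. The members and all lists were chosen with earlier results of these data known.

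Genes with low counts were removed by filterByExpr (at least 10 counts, and 15 in total), and counts were scaled by TMM (factors 0.908 to 1.05) and tested with edgeR 4.0.16 in R 4.3.3 (robust quasi-likelihood, 1 coefficient per group, 8 residual degrees of freedom, adjusted p under 0.05). SE is the log2 difference over the root of its F. Totals of 19950222 to 28789308 counts per library set the precision. On simulated data for ethanol in wild type (17906 genes), 86% of genes changed by 1 and 95% of those changed by 2 on the log2 scale were recovered, with 9 false calls. The changed genes were drawn from those with a mean of at least 5 CPM, which leaves out Ankrd37 (3.26 CPM) and Adm (4.23 CPM). Smaller changes were not simulated, and the simulated libraries held no shared variation in muscle RNA. Alternatives were other scaling factors, no filter, 5 CPM in 3 libraries, DESeq2 1.42.0, limma-voom and limma-trend (limma 3.58.1; limma-trend ran on log2 of the signal plus 1), only the groups compared, a muscle or marrow score as covariate, and libraries left out. Coordinates, near copies (95% identity over at least 200 bases, by blastn) and overlaps come from GENCODE M21, and promoters from RefSeq (GRCm38.p6). Named were members called in any comparison, otherwise the 2 with the smallest p, the 6 steepest muscle slopes and the most abundant per role. Other members are given by ranges and counts.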

Additional observations from a re-analysis of the deposited data

How the results depend on the processing

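Without 1 library at a time, ethanol in WT mice called 0 to 1 members and 35 to 320 genes (members' median −0.34 to −0.059), ethanol in KO mice 0 to 2 members and 52 to 568 genes (median −0.013 to 0.047), and ethanol averaged 3 to 5 members and 1040 to 2152 genes (median −0.15 to −0.017). KO against WT called 0 members and 2 genes each time, with medians of −0.34 to −0.17 under PBS and −0.20 to 0.0049 under ethanol, the interaction 0 members and 0 genes (median 0.060 to 0.30), and the muscle slope 11 to 15 members and 1290 to 2363 genes (median 0.036 to 0.060). Ethanol in WT mice called 0 members at 5 CPM in 3 libraries, 3 members and 731 genes with DESeq2, 0 and 138 with limma-voom, 0 and 4 with the compared groups alone, 2 and 501 with the muscle score, 2 and 502 with the marrow score, and 0 and 37 without libraries 8, 9 and 12, where library 7 alone stands for WT PBS. The WT median was −0.12 with the muscle score and −0.082 without those libraries. Ethanol in KO mice called 0 members with upper-quartile factors, 2 at 5 CPM in 3 libraries, 4 members and 986 genes with DESeq2, 5 and 1677 with the compared groups alone, 3 and 875 with the muscle score, 2 and 666 with the marrow score, and 4 and 1342 without the 3 libraries. The KO median under PBS was −0.16 with the marrow score and −0.11 without the 3 libraries, where that under ethanol was −0.0098 and that of the interaction 0.069. DESeq2 called 14 genes between KO and WT mice under ethanol and 1 in the interaction, and 620 genes had a called muscle slope without the 3 libraries. The cause of these shifts was not tested, beyond the smaller number of libraries where some were left out.

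Of the alternative values for single genes, 753 stayed on their side of the threshold, 80 lost the call and none changed direction. They cover genes called in the main fit, and the 2 members with the smallest p where no member was called. Calls gained by other genes are thus not counted. With the muscle score, edgeR also called Epas1 (0.37, adjusted p = 0.0254) and Mxi1 (0.20, adjusted p = 0.0415) in KO and Vegfa (−0.28, adjusted p = 0.0486) in WT mice. Of those for counts and medians, 384 stayed close to the main value and 78 moved. Ankrd37 and Adm rest on 44 to 175 counts per library, the limit of depth on their values. No paired analysis was possible because the groups share no replicate number.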
